A study of Homo sapiens with 9 samples.

Results

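The 10 genes described here, of 26240 in the count table, are effectors and target genes of the Hippo pathway: the YAP and TEAD readouts ANKRD1, CCN1 and CCN2, the feedback genes AMOTL2 and LATS2, the pathway regulator AJUBA, the coactivators YAP1 and WWTR1, and the DNA-binding factors TEAD1 and TEAD4. They were named as members of the pathway with results of these data known, and ANKRD1 was chosen by its read counts, which were lower in both mutants than in wild type. Those ANKRD1 values are therefore given as a description with no test, and for the other 9 genes a call adds no independent support. RNA was sequenced from definitive endoderm made from H9, an established human embryonic stem cell line. The cells were homozygous for a CRISPR/Cas9 deletion of CHD7, which encodes a chromatin remodeler (CHD7-/-, homozygous), carried the deletion on a single allele (CHD7+/-, heterozygous), or were the wild type control (CHD7+/+). Each genotype had 3 libraries, and all of them had gone through the same differentiation to endoderm. The labels name no clones or separate cultures, so the p-values rest on how far these libraries spread, which may be technical, and a genotype cannot be told apart from the clone or clones that carry it.

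In the Hippo pathway, a kinase cascade that ends in LATS1 and LATS2 phosphorylates the coactivators YAP (gene YAP1) and TAZ (gene WWTR1), which keeps them in the cytoplasm or marks them for degradation. Unphosphorylated YAP and TAZ enter the nucleus, where they bind TEAD factors on DNA and switch on genes such as ANKRD1, CCN1 and CCN2, along with AMOTL2 and LATS2, whose products restrain YAP again. The pathway responds to cell density, cell shape and tension of the actin skeleton, and it takes part in early lineage choices of embryonic cells.

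The bases before the start sites of 3 target genes are shown because TEAD factors read a short core that can be seen in them. Each run covers the 250 bases upstream of a RefSeq start site on GRCh38.p14, 5′ to 3′ on the strand of the gene, and all 3 genes lie on the minus strand. The run of ANKRD1 is chr10:90921088-90921337, that of CCN2 is chr6:131951373-131951622, and that of AMOTL2, taken at the second of its 2 annotated start sites, is chr3:134374448-134374697. Capitals mark the TEAD core CATTCC, read on the other strand as GGAATG, and the AP-1 core TGANTCA.
ANKRD1: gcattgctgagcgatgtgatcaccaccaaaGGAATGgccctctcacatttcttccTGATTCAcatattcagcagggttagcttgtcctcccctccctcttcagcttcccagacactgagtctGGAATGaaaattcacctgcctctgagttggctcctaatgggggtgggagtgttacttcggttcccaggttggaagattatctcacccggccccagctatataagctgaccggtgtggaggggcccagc
CCN2: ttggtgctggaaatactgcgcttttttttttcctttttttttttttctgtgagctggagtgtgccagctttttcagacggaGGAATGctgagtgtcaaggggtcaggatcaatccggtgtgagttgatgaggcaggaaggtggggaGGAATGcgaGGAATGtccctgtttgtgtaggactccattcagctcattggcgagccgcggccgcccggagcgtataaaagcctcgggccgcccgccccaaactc
AMOTL2: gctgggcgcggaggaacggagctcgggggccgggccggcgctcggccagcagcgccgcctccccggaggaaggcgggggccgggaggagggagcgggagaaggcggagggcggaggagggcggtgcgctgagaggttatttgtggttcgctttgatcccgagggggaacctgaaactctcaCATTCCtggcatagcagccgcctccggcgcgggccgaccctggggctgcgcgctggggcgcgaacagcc
The TEAD core stood 220 and 128 bases before the start of ANKRD1, with a match to the AP-1 letters between them at 195 bases. That match reads TGATTCA, and the search let N be any base, so it is a loose match. CCN2 held 3 TEAD cores, 169, 104 and 95 bases before its start, and AMOTL2 held 1 at 69 bases.

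RefSeq promoter windows of 300 bases, 250 before and 50 after a start site, were given for 7 of the 10 genes, in 10 windows. The TEAD core was searched on both strands and appeared in 6 of these 10 windows, at ANKRD1, CCN2, AMOTL2, YAP1, LATS2 and AJUBA. Over all 35116 windows of this length, 14.0% held it. The AP-1 core, also searched on both strands, appeared in 1 of the 10 windows, that of ANKRD1, and in 7.71% of all windows. In YAP1 the TEAD core lay 162 bases before the start, in AJUBA 59 bases before the second of 2 starts, and in LATS2 9 bases after the start. Neither window of WWTR1 held either core. These are matches of letters only, and no binding was measured. CCN1, TEAD1 and TEAD4 had no window.

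**Figure D1:**
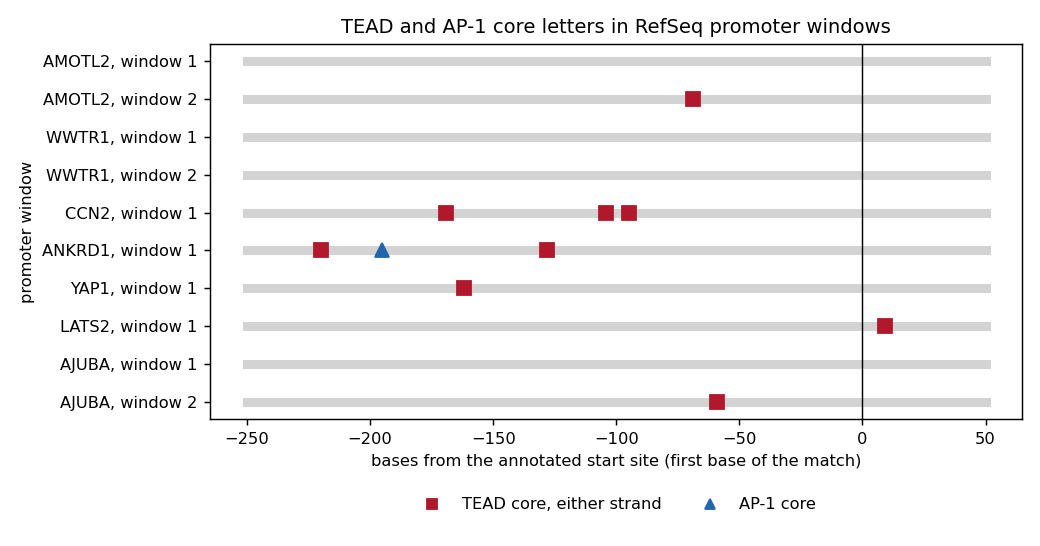
Matches to the TEAD core (squares, either strand) and the AP-1 core (triangle) in the 10 RefSeq promoter windows of 7 genes; the x axis gives bases from the annotated start site and each grey bar is a window of 300 bases. ANKRD1 and CCN2 hold 2 and 3 TEAD cores, and the windows of AMOTL2, YAP1, LATS2 and AJUBA that hold the core have 1 each.

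The libraries held 11854173 to 37519729 counts, and the shallowest was homozygous replicate 1. CHD7, the deleted gene, had 56.1, 43.0 and 55.5 CPM (read counts scaled to a common library size with TMM factors) in homozygous cells, 110, 131 and 129 CPM in heterozygous cells, and 194.9, 194.9 and 189.2 CPM in wild type cells. The 3 genotypes did not overlap, and the labels do not say which part of the gene was deleted. Of 12 endoderm markers, 4 (FOXA2, CER1, HHEX and MIXL1) fell in homozygous cells against wild type and none rose, where 4.18% of all tested genes were called lower and 3.5% higher. The summed level of the 12 was 8054 to 9149 CPM in homozygous, 9865 to 10867 CPM in heterozygous and 11696 to 12532 CPM in wild type libraries. This sum, which abundant genes set, moved with the genotype in the same order as most of the genes below. The median log2 fold change of the 12 against wild type was -0.16 in homozygous and -0.12 in heterozygous cells. No marker was called in heterozygous cells, where 1.86% of all tested genes were. Between the mutants 5 values were positive and 7 negative, and HHEX was called lower, where 2.21% of all tested genes were called. The part of the endoderm marker level in the values of the genes below was not tested. In bulk RNA, fewer cells of a type and less RNA per cell cannot be told apart.

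ANKRD1 (ENSG00000148677; chr10:90912096-90921276, minus strand, GRCh38), an ankyrin repeat protein of nucleus and sarcomere and a much used readout of YAP activity, had the largest fold changes against wild type of the 10 genes. Homozygous libraries had 17.4, 15.7 and 29.7 CPM, heterozygous libraries 34.1, 33.6 and 25.6 CPM, and wild type libraries 58.5, 75.1 and 80.6 CPM. Every mutant library lay below every wild type library, while homozygous replicate 3 lay inside the heterozygous range. The means were 20.9 ± 7.63 CPM in homozygous, 31.1 ± 4.75 CPM in heterozygous and 71.4 ± 11.5 CPM in wild type cells (SD, n = 3 each). The fitted log2 fold change was -1.77 (SE 0.21) in homozygous cells and -1.20 (SE 0.21) in heterozygous cells, each against the same wild type libraries, which is 70.7% and 56.3% lower. The raw counts behind these values were 208 to 595 in homozygous, 605 to 1048 in heterozygous and 1941 to 2290 in wild type libraries.

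ANKRD1 was chosen for its fall against wild type and not for a difference between the mutants. That choice used the same mutant libraries, so the test between them is not fully independent of it. Homozygous cells had a log2 fold change of -0.57 (SE 0.21) against heterozygous cells, with an adjusted p of 0.183 by edgeR's quasi-likelihood test over 16837 genes, so it did not pass the threshold of 0.05 used throughout. Leaving out homozygous replicate 3, the highest of its genotype, gave -0.92 with an adjusted p of 0.0110 in the same test. That was the only 1 to pass of the 9 fits that left out a library. An interval of 2 SE on either side of the estimate from all libraries ran from -0.998 to -0.15. Whether the mutants differed in ANKRD1 thus rested on 1 library. Among the relatives of ANKRD1, ANKRD23 stayed below 1 CPM in all 9 libraries, too low to be tested.

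**Figure D2:**
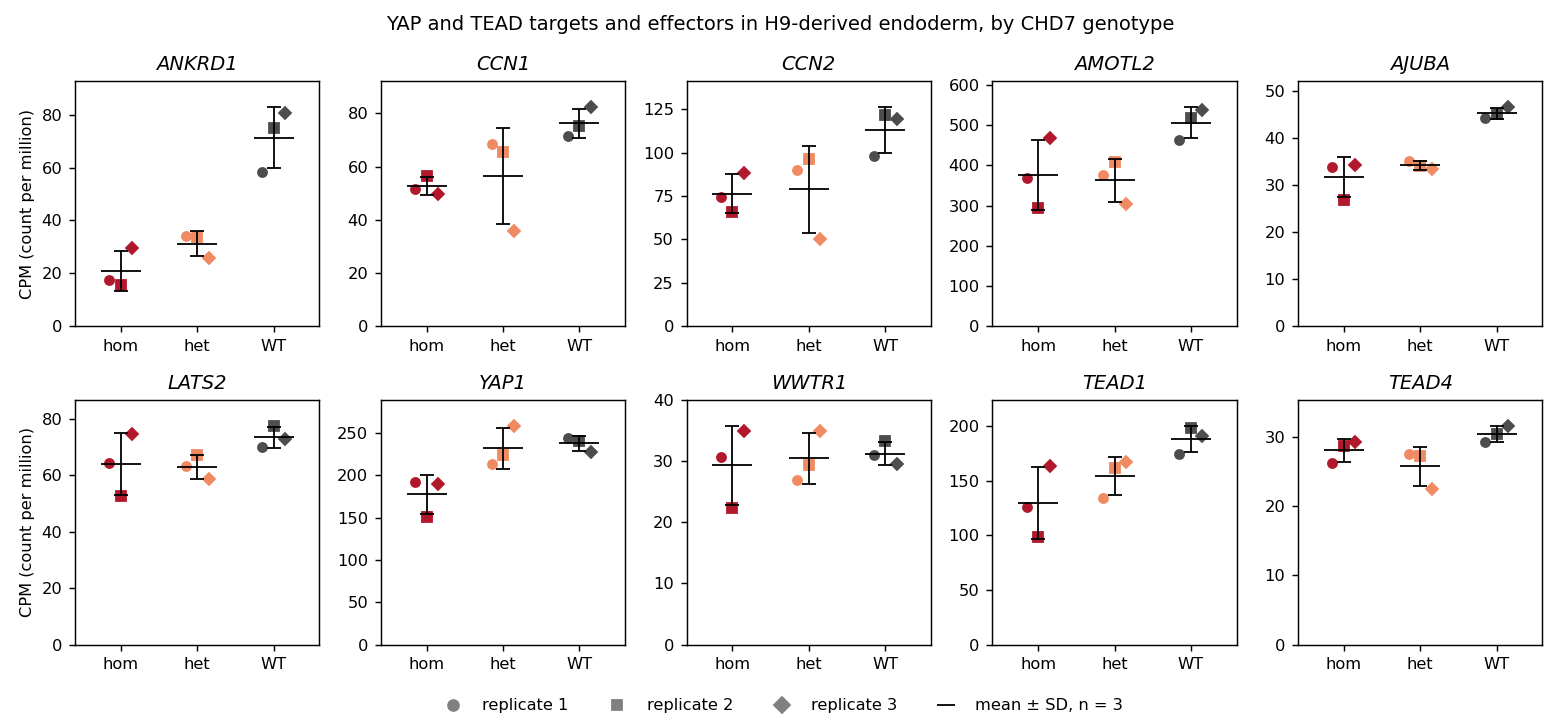
CPM of the 10 genes in each library (y axes start at 0 and differ between panels), with homozygous (hom), heterozygous (het) and wild type (WT) libraries from left to right; marker shapes give the replicate and bars the mean ± SD of 3 libraries. The mutant libraries of ANKRD1 lie between 15.7 and 34.1 CPM, below all wild type libraries, whereas the genotypes of WWTR1 overlap throughout.

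CCN1 (CYR61) and CCN2 (CTGF), secreted matricellular proteins and classical YAP targets, had lower means in both mutants, but neither passed the test against wild type. CCN1 (chr1:85580761-85583962, plus strand) had 51.6, 56.3 and 49.8 CPM in homozygous, 68.5, 65.4 and 35.7 CPM in heterozygous and 71.5, 75.2 and 82.3 CPM in wild type libraries. CCN2 (chr6:131948176-131951373, minus strand) had 74.6, 65.9 and 88.1 CPM in homozygous, 89.98, 96.2 and 49.9 CPM in heterozygous and 97.8, 121 and 120 CPM in wild type libraries. For both genes no mutant library reached the wild type range, and heterozygous replicate 3 stood far below the other 2 heterozygous libraries. With that library in, the heterozygous SD was 32.0% of the mean for CCN1 and 31.9% for CCN2, against 7.22% and 11.7% in wild type.

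In homozygous cells the log2 fold change against wild type was -0.54 (SE 0.18) for CCN1, with an adjusted p of 0.101, and -0.57 (SE 0.20) for CCN2, with an adjusted p of 0.104, in edgeR's quasi-likelihood test. Heterozygous replicate 3 enters these comparisons through the shared fit; without it the adjusted p was 0.00192 for CCN1 and 0.0105 for CCN2, and with the 6 libraries of the comparison alone 0.00534 and 0.0212. In heterozygous cells CCN1 had -0.43 (SE 0.18) and CCN2 -0.52 (SE 0.20), with adjusted p-values of 0.327 and 0.261 in that test. These heterozygous values depended on single libraries. Over the 9 fits that left out 1 library they ran from -0.59 to -0.19 for CCN1 and from -0.68 to -0.28 for CCN2. Neither gene passed in any of those fits. Between homozygous and heterozygous cells the 2 SE interval of the log2 fold change was -0.48 to 0.26 for CCN1 and -0.45 to 0.35 for CCN2, so neither a lower nor a higher level was shown. Of the other CCN genes, CCN3 was in the table but stayed below 0.3 CPM in every library.

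AMOTL2 (chr3:134355874-134375479, minus strand), an angiomotin family protein that binds YAP and holds it at cell junctions, had 369, 294 and 468 CPM in homozygous, 376, 409 and 303 CPM in heterozygous and 464, 519 and 537 CPM in wild type libraries. Homozygous replicate 3 overlapped the wild type range, and all heterozygous libraries lay below it. The log2 fold change was -0.43 (SE 0.15) in homozygous and -0.48 (SE 0.15) in heterozygous cells, with adjusted p-values of 0.107 and 0.158 in edgeR's quasi-likelihood test. Without homozygous replicate 3 both comparisons passed, at adjusted p-values of 0.00937 and 0.0378 in that test, and the homozygous value was then -0.61. For each comparison that was the only 1 to pass of the 9 fits that left out a library. Over those fits the values reached -0.28 in homozygous and -0.37 in heterozygous cells at their smallest. The adjusted p-values rose as far as 0.312 and 0.530 in that test. The heterozygous comparison also passed with its 6 libraries alone (0.0299). LATS2 (chr13:20973032-21061547, minus strand), the kinase that phosphorylates YAP and TAZ and is itself a YAP target, averaged 64.0 ± 11.1 CPM in homozygous, 63.0 ± 4.35 CPM in heterozygous and 73.6 ± 3.72 CPM in wild type cells (SD, n = 3 each). Homozygous libraries of LATS2, at 64.4, 52.7 and 74.8 CPM, overlapped wild type libraries, at 70.2, 77.6 and 73.0 CPM, while heterozygous libraries, at 63.2, 67.3 and 58.6 CPM, lay below them. Its 2 SE intervals against wild type, -0.44 to 0.03 in homozygous and -0.45 to 0.01 in heterozygous cells, both included 0.

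AJUBA (chr14:22971174-22982642, minus strand), a LIM domain protein that binds LATS kinases at junctions and limits their activity, fell in homozygous cells. It had 33.9, 26.8 and 34.4 CPM in homozygous, 35.2, 34.1 and 33.3 CPM in heterozygous and 44.2, 45.2 and 46.5 CPM in wild type libraries. The 6 mutant libraries all lay below wild type, and heterozygous and wild type libraries were each tightly grouped, with SDs of 2.72% and 2.6% of the mean. The log2 fold change in homozygous cells was -0.52 (SE 0.10), with an adjusted p of 0.00718 in edgeR's quasi-likelihood test, and it passed in each of 9 fits that left out 1 library, where the highest adjusted p was 0.0416. Heterozygous cells had -0.41 (SE 0.10) with an adjusted p of 0.0674 in that test. There the gene passed without homozygous replicate 2 (adjusted p 0.0140) or 3 (0.0381), by DESeq2 (0.0118), and with the 6 libraries of the comparison alone (0.0172).

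Of the coactivators, YAP1 (chr11:102110461-102233423, plus strand) fell in homozygous cells, and WWTR1 (chr3:149517235-149736714, minus strand) did not pass in any comparison. YAP1 had 191.9, 151 and 189.1 CPM in homozygous, 213, 224 and 258 CPM in heterozygous and 244, 241 and 228 CPM in wild type libraries. The homozygous libraries lay below both other genotypes, and the heterozygous and wild type libraries overlapped. The log2 fold change was -0.42 (SE 0.10) in homozygous cells against wild type, with an adjusted p of 0.0252 in edgeR's quasi-likelihood test. Leaving out homozygous replicate 2 raised the adjusted p to 0.0680, and leaving out wild type replicate 1, 2 or 3 to 0.0781, 0.109 or 0.0638. Heterozygous cells had -0.04 (SE 0.10) against wild type, with a 2 SE interval of -0.24 to 0.17.

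YAP1 was the gene of the 10 whose homozygous libraries lay apart from the heterozygous ones. Its log2 fold change between the mutants was -0.39 (SE 0.10), with an adjusted p of 0.0764 in edgeR's quasi-likelihood test and 0.0267 in DESeq2. WWTR1 had 30.8, 22.3 and 35.1 CPM in homozygous, 27.0, 29.5 and 35.1 CPM in heterozygous and 31.0, 33.3 and 29.6 CPM in wild type libraries. The ranges of WWTR1 overlapped throughout, and its 2 SE intervals against wild type were -0.40 to 0.20 in homozygous and -0.34 to 0.26 in heterozygous cells. Exons of WWTR1 share 795 bases with the antisense gene WWTR1-AS1, and those of YAP1 share 628 bases and those of CCN2 195 bases with a gene on the other strand. No source used here gives the strand setting of the counting, and without it reads of such partners cannot be told apart.

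TEAD1 (chr11:12674591-12944483, plus strand), a factor that carries YAP and TAZ to DNA, fell in homozygous cells close to the threshold. It had 126, 98.1 and 164 CPM in homozygous, 134, 161 and 167 CPM in heterozygous and 175, 198 and 190.9 CPM in wild type libraries. Every mutant library lay below wild type, and the mutants overlapped. The log2 fold change was -0.54 (SE 0.15) in homozygous cells, with an adjusted p of 0.0470 in edgeR's quasi-likelihood test, and -0.29 (SE 0.15) in heterozygous cells, with an adjusted p of 0.436. The homozygous call ended when homozygous replicate 1 (adjusted p 0.133) or 2 (0.120), heterozygous replicate 2 (0.0781), or wild type replicate 1 (0.0691), 2 (0.174) or 3 (0.134) was left out, and the adjusted p was 0.0505 with RLE scaling and 0.0671 with the 6 libraries of the comparison alone. TEAD4 (chr12:2959330-3040673, plus strand), its paralog, had 26.2, 28.7 and 29.3 CPM in homozygous, 27.5, 27.2 and 22.5 CPM in heterozygous and 29.3, 30.3 and 31.6 CPM in wild type libraries. For TEAD4 the 2 SE interval against wild type was -0.32 to 0.09 in homozygous and -0.44 to -0.04 in heterozygous cells, and the adjusted p-values in the same test were 0.543 and 0.327.

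**Figure D3:**
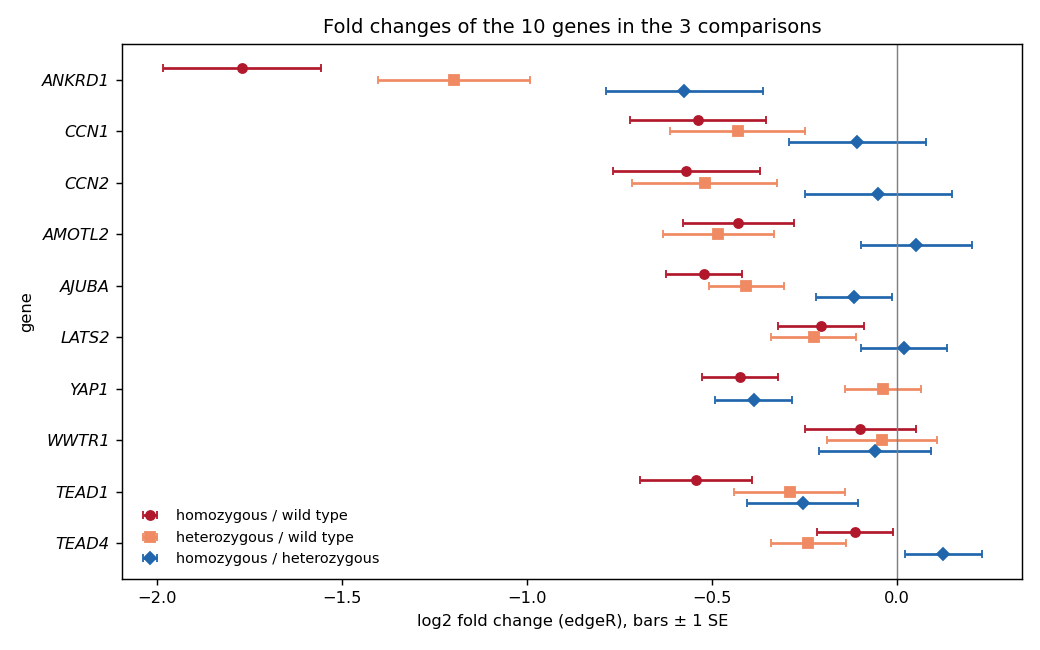
Fitted log2 fold changes of the 10 genes (x axis, bars ± 1 SE) for each mutant over wild type (red and orange) and for homozygous over heterozygous cells (blue). All 20 values against wild type are below 0, from -1.77 for ANKRD1 to -0.04 for YAP1 and WWTR1 in heterozygous cells, whereas values between the mutants lie on both sides of 0.

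All 10 genes had the highest mean in wild type cells, which for ANKRD1 was the ground of its choice. How many of all tested genes share that order was not counted. Few of the 10 passed the test singly. Leaving aside ANKRD1, 3 of the other 9 (AJUBA, YAP1 and TEAD1) were called lower in homozygous cells and none higher; of the 16837 tested genes, 4.18% were called lower, 3.5% higher and 7.68% in either direction. The 3 calls became 1, AJUBA, when homozygous replicate 2 or wild type replicate 1, 2 or 3 was left out, and 5, with CCN1 and CCN2, without heterozygous replicate 3. Over 18 alternative settings the homozygous call held in 17 for AJUBA, 13 for YAP1 and 9 for TEAD1, and CCN1 passed in 2, CCN2 in 2 and AMOTL2 in 1; the adjusted p of each reached 1 when tested against 1.5-fold. In heterozygous cells none of the other 9 passed in edgeR, where 1.04% of tested genes were called lower, 0.82% higher and 1.86% in either direction. There 5 of the 9 had an unadjusted p below 0.05, limma-voom called none, and DESeq2 called AJUBA. Since the genes were named with results known, nothing is read from these shares. The median log2 fold change of the 9 genes was -0.43 in homozygous and -0.29 in heterozygous cells, against 0.01 and 0.00 over all tested genes. All 10 values stayed negative in both comparisons under the RLE and upper quartile scalings; the comparisons share the wild type libraries.

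By library ranges, and again leaving aside ANKRD1, 5 of the other 9 genes (CCN1, CCN2, AJUBA, YAP1 and TEAD1) had all homozygous libraries below all wild type libraries, as did 15.7% of tested genes, and none had them all above, as 13.2% of tested genes did. In heterozygous cells 7 of the 9 did, all but YAP1 and WWTR1, and none lay above; 11.1% of tested genes lay below and 11.1% above. Between homozygous and heterozygous cells, YAP1 was the single gene with all homozygous libraries lower, against 10.5% of tested genes lower and 9.02% higher, and none of the 10 passed the test in edgeR or limma-voom. There 2 of the 10 had an unadjusted p below 0.05, DESeq2 called YAP1, and edgeR called 2.21% of all tested genes, 1.22% lower and 0.986% higher. The means ran in the order homozygous, heterozygous, wild type from low to high in 7 genes, ANKRD1 among them. Heterozygous cells had the lowest mean for AMOTL2, LATS2 and TEAD4. These orders were not counted over all tested genes, so nothing is read from them.

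The libraries of 1 genotype also differed in a shared way. Among the homozygous libraries, replicate 2 was the lowest in 8 of the 10 genes and replicate 3 the highest in 8. Heterozygous replicate 3 was the lowest of its genotype in 7 genes, and wild type replicate 1 in 8. The same was not counted over all tested genes, so it is not read as a trait of these 10. The summed level of the 10 genes was 985, 811 and 1162 CPM in homozygous, 1068, 1147 and 989 CPM in heterozygous, and 1285, 1416 and 1419 CPM in wild type libraries. The mutant sums all lay below the wild type sums, and they overlapped each other.

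Per kilobase of summed exon length, which allows levels of different genes to be compared, AMOTL2 was the most abundant of the 10 in every genotype, at 62.95 ± 14.6 CPM per kb in homozygous, 60.6 ± 9.04 in heterozygous and 84.7 ± 6.39 in wild type cells (SD, n = 3 each). WWTR1 was the least abundant, at 3.49 ± 0.768, 3.63 ± 0.491 and 3.72 ± 0.221 CPM per kb in homozygous, heterozygous and wild type cells, where YAP1 stood at 28.2 ± 3.62, 36.8 ± 3.79 and 37.7 ± 1.36. ANKRD1 was the gene whose place moved most, standing 8th in homozygous, 5th in heterozygous and 4th in wild type cells. In wild type cells the order was AMOTL2, CCN2, YAP1, ANKRD1, CCN1, TEAD1, TEAD4, LATS2, AJUBA and WWTR1. There the library ranges of ANKRD1 (29.6 to 40.7 CPM per kb) overlapped those of its neighbours YAP1 and CCN1, and TEAD4 and LATS2 overlapped, while the other neighbours lay apart. In homozygous cells ANKRD1, at 10.6 ± 3.85 CPM per kb, overlapped TEAD1, TEAD4 and LATS2.

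The rest of the pathway was read from 48 genes listed by role or from a published 22-gene target signature, of which 44 were tested. In homozygous cells 4 of the 44 fell (FAT4, AMOTL1, NUAK2 and F3), 3 rose (WWC3, WTIP and FJX1) and 37 did not pass, with a median log2 fold change of -0.06. The share called over all tested genes in that comparison was 7.68%. Leaving out 1 library changed that count of 7 to 3 (homozygous replicate 1 or 2), 11 (homozygous replicate 3), 4 (wild type replicate 1) or 2 (wild type replicate 2 or 3). In heterozygous cells NUAK2 fell and the other 43 did not pass, with a median of -0.04 and a share called over all tested genes of 1.86%. That single call became 0 without homozygous replicate 1 or any 1 of the heterozygous or wild type libraries, and 2 without homozygous replicate 2 or 3. Between homozygous and heterozygous cells none of the 44 passed in edgeR or limma-voom, 10 had an unadjusted p below 0.05, DESeq2 called WWC3, WTIP and AMOTL1, and edgeR called 1 when any 1 of the homozygous libraries was left out.

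Upstream of the kinases, FAT4, an atypical cadherin that feeds into the pathway, had 0.919, 0.894 and 2.59 CPM in homozygous, 2.02, 3.07 and 1.74 CPM in heterozygous and 3.35, 4.03 and 4.73 CPM in wild type libraries. All mutant libraries lay below wild type, and the homozygous log2 fold change of -1.44 (SE 0.36) had an adjusted p of 0.0296 in edgeR's quasi-likelihood test. That call was lost without homozygous replicate 1 (0.0996) or 2 (0.128) or wild type replicate 2 (0.0894) or 3 (0.109). AMOTL1, the paralog of AMOTL2, had 71.6, 61.2 and 97.5 CPM in homozygous, 94.6, 109 and 122 CPM in heterozygous and 147, 154 and 154 CPM in wild type libraries. It fell by 0.98 on the log2 scale in homozygous cells (SE 0.15, adjusted p 0.00113 in that test), and it passed in each fit that left out 1 library. Heterozygous cells had -0.48 (SE 0.14) with an adjusted p of 0.134 in that test, or 0.0466 and 0.0196 when homozygous replicate 2 or 3 was left out.

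Among regulators that rose in homozygous cells, WWC3, a KIBRA family scaffold of the LATS kinases, averaged 48.9 ± 4.92 CPM in homozygous, 39.1 ± 1.33 CPM in heterozygous and 35.2 ± 0.657 CPM in wild type cells (SD, n = 3 each). In edgeR's quasi-likelihood test it rose by 0.47 on the log2 scale (SE 0.09, adjusted p 0.00685), with all homozygous libraries above the other 6. WWC3 passed in each of the 9 fits that left out 1 library. WTIP, a LIM protein of the AJUBA family, averaged 72.6 ± 7.91, 57.8 ± 1.28 and 55.1 ± 0.222 CPM in homozygous, heterozygous and wild type cells, and its homozygous value was 0.40 (SE 0.09, adjusted p 0.0147 in the same test). The WTIP call was lost when wild type replicate 1, 2 or 3 was left out. WTIP is named outside the rule, after its values were seen. The core kinases and adaptors STK3, STK4, SAV1, MOB1A, MOB1B and LATS1 did not pass in homozygous or heterozygous cells. Of the remaining TEAD genes, TEAD2 averaged 260 ± 12.04 CPM in homozygous, 249 ± 2.08 CPM in heterozygous and 261 ± 10.4 CPM in wild type cells, and its 2 SE intervals against wild type were -0.15 to 0.14 and -0.21 to 0.07. TEAD3 did not pass either.

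In the target signature of 22 genes, which holds 5 of the 10 described above, 19 genes besides ANKRD1 were tested. In homozygous cells 2 of the 19 fell (NUAK2 and F3), FJX1 rose and 16 did not pass, where 4.18% of all tested genes were called lower and 3.5% higher. NUAK2, a kinase of the AMPK family, had 15.04, 13.0 and 18.6 CPM in homozygous, 16.1, 17.9 and 13.3 CPM in heterozygous and 22.7, 25.0 and 24.9 CPM in wild type libraries. All its mutant libraries lay below wild type, and it fell by 0.64 (SE 0.15, adjusted p 0.0172) in homozygous and by 0.62 (SE 0.14, adjusted p 0.0477) in heterozygous cells on the log2 scale in edgeR's quasi-likelihood test. The homozygous call of NUAK2 was lost without homozygous replicate 1 (0.0623) or 2 (0.0688) or wild type replicate 2 (0.0766) or 3 (0.0707). F3, which encodes tissue factor, fell by 0.52 (SE 0.14, adjusted p 0.0471 in that test) and FJX1, a relative of a fly kinase that acts on the cadherin Fat, rose by 0.62 (SE 0.17, adjusted p 0.0488 in that test). Leaving out 1 library ended the F3 call in 7 of 9 fits and the FJX1 call in 6 of 9.

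**Figure D4:**
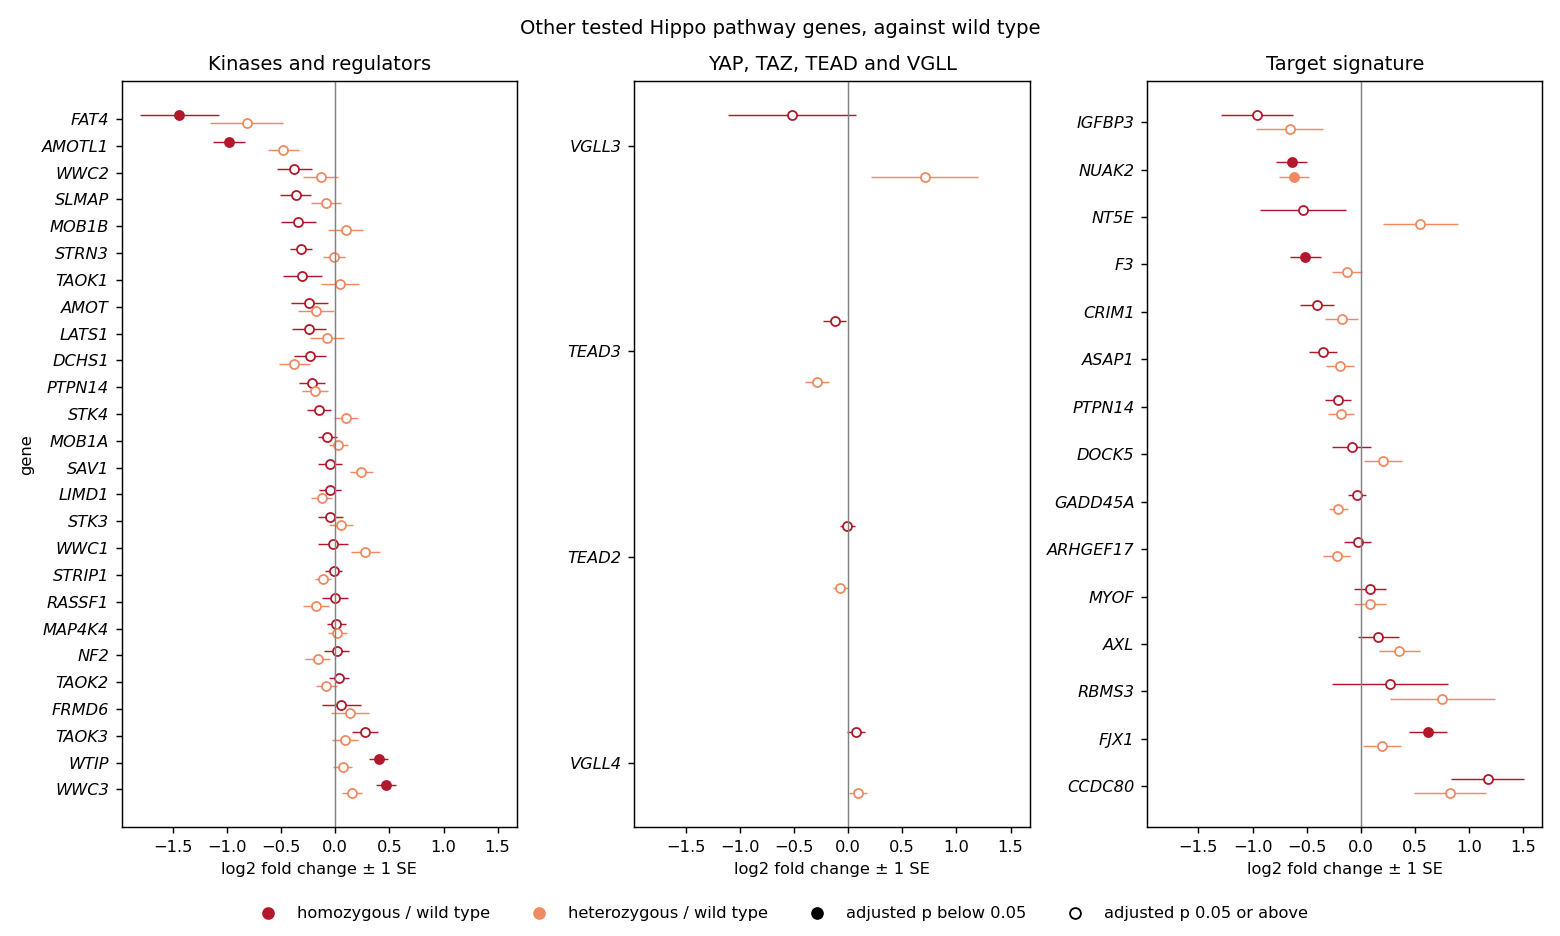
Log2 fold changes against wild type (x axis, bars ± 1 SE) of the other tested Hippo genes, in 3 panels for kinases and regulators, cofactors and TEAD genes, and the target signature; PTPN14 stands in 2 panels, and filled points had an adjusted p below 0.05. The filled homozygous points are FAT4, AMOTL1, NUAK2 and F3 on the lower side and WTIP, WWC3 and FJX1 on the higher side, and the filled heterozygous point is NUAK2.

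The genes with a profile most like that of ANKRD1 were SP8, FAM13C, ADAMTS5, ADGRL3 and NRP1. Likeness was the root mean square difference of log2 CPM, centred on the mean of each gene, over the 9 libraries and 13085 genes, and it ran from 0.115 for SP8 to 0.174 for NRP1. They were chosen for the pattern, so their values are a description. SP8, a zinc finger transcription factor, had 9.86, 7.71 and 17.6 CPM in homozygous, 18.5, 17.5 and 11.995 CPM in heterozygous and 29.9, 38.4 and 36.9 CPM in wild type libraries. ADAMTS5, a matrix protease, had 1.59, 1.26 and 2.54 CPM in homozygous, 3.48, 3.58 and 2.84 CPM in heterozygous and 5.85, 7.31 and 7.22 CPM in wild type libraries. As in ANKRD1, homozygous replicate 3 was the highest of its genotype in all 5 genes, and wild type replicate 1 the lowest of its genotype. Their log2 fold changes against wild type lay between -1.93 and -1.58 in homozygous cells and between -1.19 and -0.99 in heterozygous cells.

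**Figure D5:**
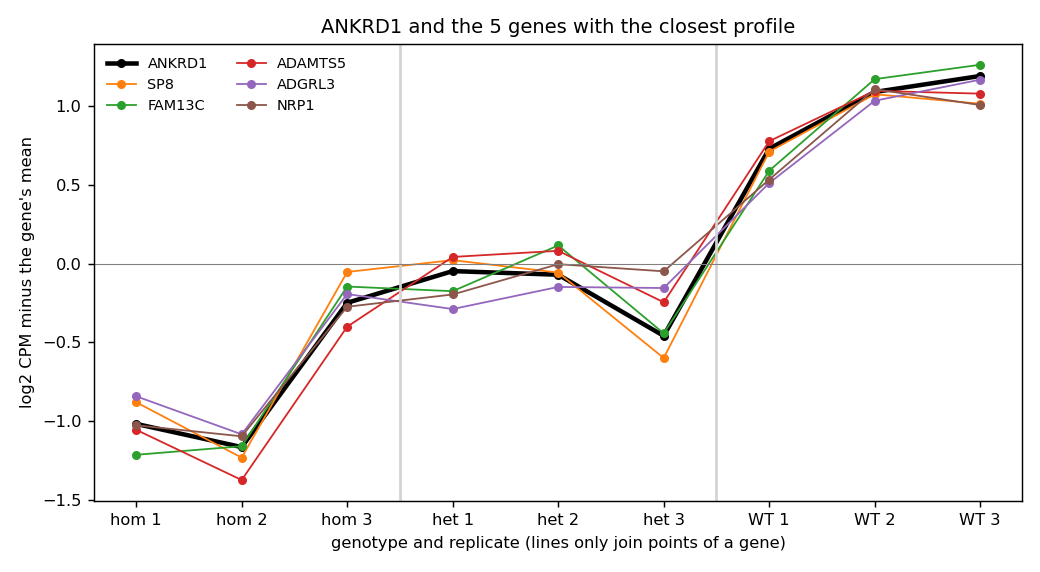
Log2 CPM minus the mean of each gene (y axis) in the 9 libraries (x axis: homozygous, heterozygous, wild type) for ANKRD1 (black) and the 5 genes with the closest profile; lines only join the points of a gene. ANKRD1 runs between -1.16 and -0.25 in homozygous, -0.46 and -0.05 in heterozygous and 0.73 and 1.19 in wild type libraries.

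Several of the 10 genes are also expressed in heart muscle, mesenchyme and endothelium, so marker lists of those cells were summed. Cardiac muscle markers, of which 10 of 12 were in the table and 6 exceeded 1 CPM in any library, summed to 232 to 394 CPM in homozygous, 239 to 253 CPM in heterozygous and 314 to 422 CPM in wild type libraries. MYL7, NPPB and TTN carried most of that sum; MYL7, an atrial myosin light chain, averaged 138, 79.8 and 115 CPM and TTN, the sarcomere protein titin, 76.3, 87.3 and 92.2 CPM in homozygous, heterozygous and wild type cells. Among the markers near 0, TNNT2 averaged 0.0497, 0.0263 and 0.124 CPM in homozygous, heterozygous and wild type cells, and MYH6 was at 0 in all mutant libraries. NPPB, a natriuretic peptide gene named after its values were seen, averaged 77.0 ± 33.1 CPM in homozygous, 72.6 ± 15.3 CPM in heterozygous and 162 ± 36.3 CPM in wild type cells (SD, n = 3 each). It fell by 1.07 (SE 0.26, adjusted p 0.0232) and by 1.16 (SE 0.26, adjusted p 0.0405) on the log2 scale in homozygous and heterozygous cells in edgeR's quasi-likelihood test. The other 6 of the 7 tested cardiac markers did not pass in either, where 7.68% and 1.86% of all tested genes were called. MYL7 was called higher in homozygous than in heterozygous cells, where 2.21% of all tested genes were called.

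Mesenchyme markers, 9 of 11 in the table, summed to 104 to 149 CPM in homozygous, 127 to 175 CPM in heterozygous and 133 to 158 CPM in wild type libraries, and endothelial markers, all 9 in the table, to 538 to 658, 429 to 610.5 and 494 to 517 CPM. Pluripotency markers summed to 3450 to 3638 CPM in homozygous, 3604 to 3931 CPM in heterozygous and 3910 to 4014 CPM in wild type libraries. Gene by gene the 9 tested pluripotency markers did not follow that sum. Against wild type, 7 were higher and 2 lower in heterozygous cells, with a median log2 fold change of 0.25 and none called. In homozygous cells 4 were higher and 5 lower, with a median of -0.05, and TDGF1 was called lower. Trophoblast and amnion markers, 7 of 12 in the table, summed to 23.5 to 31.3 CPM in homozygous, 13.4 to 13.9 CPM in heterozygous and 10.03 to 13.0 CPM in wild type libraries. The endoderm and pluripotency sums of homozygous libraries lay below those of wild type, the trophoblast and endothelial sums lay above them, and the cardiac and mesenchyme sums overlapped. Abundant genes set these sums: VWF averaged 579 CPM in homozygous and 443 CPM in wild type cells and did not pass (adjusted p 0.0770 in edgeR's quasi-likelihood test), while of the other endothelial markers KDR and TEK were called lower and CLDN5 higher. In the mesenchyme list COL1A2 and TWIST1 were called lower, with a median log2 fold change of -0.65 over the 6 tested. Of those 6, 4 values were negative and 2 positive. Only 3 genes of the trophoblast list were tested, and TFAP2C and GATA3 among them were called higher. All these calls are for homozygous cells against wild type, where 4.18% of all tested genes were called lower and 3.5% higher. In heterozygous cells against wild type edgeR called no gene of the endothelial, mesenchyme and trophoblast lists. The part of these cells in the values of the 10 genes was not tested.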

How the data were processed

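RNA-seq of 9 libraries, 3 for each of 3 CHD7 genotypes, was used as the read counts per gene deposited by the authors, whole numbers with no normalization, 1 column per library. Per the submitters' processing notes, FastQC, Trimmomatic, HISAT2, SAMtools, HTSeq and the build hg38 were used; no source used here gives versions, strand setting or annotation release. Symbols were matched for 21256 of 26240 gene IDs, and GENCODE coordinates on GRCh38 for 25209. Library totals of 11854173 to 37519729 set the counting precision.

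From the counts, filterByExpr left 16837 genes and removed 9403. edgeR 4.0.16 (R 4.3.3) fitted all 9 libraries together by genotype with TMM factors of 0.973 to 1.01, and tested by quasi-likelihood with Benjamini-Hochberg adjustment over all tested genes at 0.05. CPM used TMM-scaled totals, with a prior count of 2 for log2 CPM. Intervals are the estimate with 2 SE on either side. Alternatives were RLE and upper quartile factors, no filter or at least 1 CPM in 3 libraries, DESeq2 1.42.0, limma-voom (limma 3.58.1), glmTreat against 1.5-fold, the 6 libraries of a comparison alone, a replicate block, and each library left out. The fit was tested on simulated data. Libraries of a genotype differed beyond counting noise and none were merged.

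The members and gene lists were chosen with earlier results of these data known. Genes named were CHD7, the 10 members, up to 4 called genes with the largest change per list and comparison, and the 5 genes closest to ANKRD1 in profile; others are stated as such. RefSeq (GRCh38.p14) gave the promoter sequences.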

Additional observations from a re-analysis of the deposited data

How the results depend on the processing

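Against 1.5-fold (glmTreat), 281 genes, 1 member and 0 other pathway genes were called in homozygous cells, 89, 0 and 0 in heterozygous cells, and 67 genes between the mutants, where the test without a fold threshold had 1293, 4 and 7, then 313, 1 and 1, and 372. DESeq2 called 574 genes and 2 members in heterozygous cells, and 849 genes, 1 member and 3 other pathway genes between the mutants. The 6 libraries alone gave 604 genes (290 higher, 314 lower), 3 members and 2 pathway genes in heterozygous cells, and 177 genes (103 higher, 74 lower, against 166 and 206) between the mutants. Upper quartile factors left 0 pathway genes in heterozygous cells and turned the balance of calls in homozygous cells to 712 higher and 607 lower, against 589 and 704. The counts of members include ANKRD1, which was chosen for its fall in both mutants. Leaving out 1 library gave 651 to 2118 genes, 2 to 6 members and 2 to 11 pathway genes in homozygous cells, 130 to 624, 0 to 3 and 0 to 2 in heterozygous cells, and 141 to 377, 0 to 1 and 0 to 1 between the mutants.

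Same-numbered libraries of different genotypes correlated at -0.19 to 0.24 in their deviations from the genotype mean. Libraries with different numbers were not compared, so whether the numbers pair the samples was not settled. With the replicate block, 1503 genes were called in homozygous cells, against 1293 without it, and 461 between the mutants, against 372. In heterozygous cells 492 genes (264 higher, 228 lower, against 138 and 175) and 2 pathway genes were called, and between the mutants 1 pathway gene.

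Signs turned in 21 single-gene values, none past the threshold. They came from leaving out 1 library, where the log2 fold change ran from -0.25 to 0.075 for WWTR1 in homozygous cells against wild type. In heterozygous cells it ran from -0.12 to 0.021 for YAP1, -0.15 to 0.043 for WWTR1 and -0.081 to 0.0019 for CALD1. Between the mutants it ran from -0.34 to 0.053 for CCN1, -0.29 to 0.12 for CCN2, -0.13 to 0.20 for AMOTL2, -0.11 to 0.15 for LATS2, -0.22 to 0.11 for WWTR1 and -0.18 to 0.10 for NUAK2. The exceptions were limma-voom, with -0.0027 for LATS2, and upper quartile factors, with 0.00086 for NUAK2, both between the mutants. The cause was not tested for any of these shifts. Low counts limit the precision of FAT4 and ACTG2, both under 5 CPM, and ANKRD23 and CCN3 were too low to be tested.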

Other observations

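Genes of serum response factor (SRF) and the actin skeleton, which is coupled to YAP activity in many cells, were read from a list of 23, of which 22 were tested. In homozygous cells against wild type ACTG2 rose, CALD1 fell and 20 did not pass, with a median log2 fold change of -0.08; in heterozygous cells ACTG2 rose, TAGLN fell and 20 did not pass, with a median of -0.19. The same median over all tested genes was 0.01 and 0.00, and the share called was 7.68% and 1.86%. The list's level rests on ACTB, at 7253 ± 492 CPM in homozygous, 6498 ± 1090 CPM in heterozygous and 7352 ± 302 CPM in wild type cells (SD, n = 3 each), which did not pass in either comparison.

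CALD1, the actin-binding caldesmon, had 137, 104 and 119 CPM in homozygous, 160, 163 and 179 CPM in heterozygous and 169, 174 and 169 CPM in wild type libraries. It fell by 0.51 (SE 0.10, adjusted p 0.00622) against wild type and by 0.48 (SE 0.10, adjusted p 0.0236) against heterozygous cells on the log2 scale in edgeR's quasi-likelihood test, and heterozygous cells had -0.03 (SE 0.10) against wild type. The call against heterozygous cells was lost without homozygous replicate 2 (0.0524), heterozygous replicate 2 (0.0772) or 3 (0.0724), or wild type replicate 2 (0.0508), and with the 6 libraries alone (0.0866). TAGLN, transgelin, had 341, 413 and 489 CPM in homozygous, 369, 336 and 308 CPM in heterozygous and 420, 661 and 719 CPM in wild type libraries, and fell in heterozygous cells by 0.83 on the log2 scale (SE 0.18, adjusted p 0.0326 in that test). That call was lost without heterozygous replicate 1 (0.0643), 2 (0.156) or 3 (0.102) or wild type replicate 2 (0.168) or 3 (0.178). ACTG2, smooth muscle gamma actin, was low, at 2.42 ± 0.693 CPM in homozygous, 1.82 ± 0.258 CPM in heterozygous and 0.508 ± 0.164 CPM in wild type cells (SD, n = 3 each). It rose by 2.24 (SE 0.31, adjusted p 0.000681) in homozygous and by 1.81 (SE 0.31, adjusted p 0.00868) in heterozygous cells on the log2 scale in the same test; the heterozygous call was lost without heterozygous replicate 2 (0.0560) or wild type replicate 3 (0.0530). Actin genes are near copies, so its counts may hold reads of far more abundant paralogs.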
